A study of Mus musculus with 2 samples.

Results

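The genes described here are the collagen genes of the mouse trigeminal ganglion (TG), the ganglion that holds the cell bodies of the sensory neurons of the face. They were chosen by name, as the symbols made of Col, a type number, the letter a and a chain number, and 44 of the 39098 gene symbols in the files matched. Of these, 11 code for fibrillar collagens, 8 for basement membrane collagens and 25 for other collagens. Values are given for the 36 genes with at least 50 unique molecular identifiers (UMIs) in both libraries together. The other 8 genes, Col4a3, Col4a6, Col6a4, Col6a6, Col17a1, Col19a1, Col20a1 and Col22a1, had between 8 and 49 UMIs each and are only named.

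Single cells of right TGs from male C57BL/6 mice of 5 to 8 weeks were profiled with the BD Rhapsody system after dissociation in papain. The CFA group had received 20 μL of complete Freund's adjuvant (CFA), which causes a lasting local inflammation, into the right vibrissal pad a week earlier. The control group is labelled untreated, while the study's methods describe an injection of saline. Each group is 1 library, the study's methods give the size of the groups but not how many mice went into a library, and no difference between the libraries has a replicate check.

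Collagens are proteins of the extracellular matrix in which 3 chains wind into a triple helix. Fibrillar collagens pack into the fibrils that give tissue its tensile strength, and collagen I, made of the Col1a1 and Col1a2 chains, is the most abundant of them in connective tissue. Collagen IV forms the network of basement membranes, the thin sheets that surround blood vessels, Schwann cells and the satellite glial cells around each neuron, and collagens XV and XVIII link these sheets to the matrix around them. The remaining types include the beaded filaments of collagen VI, the fibril-associated collagens, the network-forming collagens VIII and X and collagens that span the cell membrane.

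After filtering, 6695 control cells and 3661 CFA cells remained, with a median of 1448.0 and 1192.0 UMIs per cell. They were grouped into 10 named classes without the use of any collagen gene. The classes held 591 and 399 fibroblasts (control and CFA), 2308 and 1387 myelinating Schwann cells, 756 and 306 non-myelinating Schwann cells, 1274 and 452 satellite glial cells, 293 and 163 endothelial cells, 68 and 23 mural cells, and 822 and 428 neurons, beside oligodendrocyte-like, immune and erythroid cells. In each library all 10 markers of neurons, endothelial cells and mural cells were highest in their own class, as were 8 of 10 for fibroblasts and for satellite glial cells, but 4 of 10 for non-myelinating Schwann cells. The libraries share 27 barcode numbers, and possible doublets were kept. The control library holds 365 cells of a satellite glial cluster led by interferon-response genes (Gbp2, Cxcl10, Ifi47), and the CFA library 14. Of the CFA cells, 3 carried at least 10 UMIs of the bone matrix genes Ibsp, Bglap and Bglap2 together, and a fibroblast cluster without the usual level of the fibroblast marker Dcn held 5 control and 32 CFA cells. Values without the 3 cells and this cluster, called the cells in doubt, stand beside the results they touch, and this choice was made after the data were seen.

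Levels are in CPM, the UMIs of a gene in a class and library divided by all UMIs of that class and library and scaled to a fixed total, with the 95% Poisson interval in brackets. Where a pair of values is given, the control library comes first. A UMI counts 1 molecule whatever the length of the transcript, so levels of different genes were set side by side without division by length. Intervals cover counting error only, and differences between the libraries are log2 ratios of CFA to control.

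Collagens gave 43322 of the 48187566 UMIs of named control cells and 21640 of the 21600163 UMIs of named CFA cells. Fibroblasts held the largest share, 43.84% of the collagen UMIs in the control library (43.37 to 44.31, Clopper-Pearson) and 48.22% in the CFA library (47.55 to 48.88). Collagens made up 1.666% and 1.690% of all fibroblast UMIs. The next highest proportions in the control library were 0.4858% in non-myelinating Schwann cells and 0.4006% in mural cells. Neurons were lowest, with 0.008785% and 0.007987%.

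Of the 36 genes, 16 in the control and 20 in the CFA cells had their highest level in fibroblasts, beside 7.00% and 7.75% of all 16295 genes with as many UMIs. In both libraries alike this held for 16 (3.92% of all genes). These 16 are Col1a1, Col1a2, Col3a1, Col2a1, Col5a2 and Col11a1 among the fibrillar chains, Col15a1 of the basement membrane zone, the 3 collagen VI chains Col6a1, Col6a2 and Col6a3, Col8a1 and Col8a2 of the network-forming collagen VIII, Col9a1, Col9a2 and Col12a1 of the fibril-associated group, and Col26a1. Without the cells in doubt 13 remained of 35 genes with enough UMIs, since Col8a2 had too few and Col11a1 and Col12a1 lost the call. Col11a1 was then at 62.37 CPM (42.66 to 88.05) in CFA fibroblasts and 78.15 CPM (60.81 to 98.91) in CFA satellite glial cells. Col12a1 was at 31.34 and 21.44 CPM in fibroblasts and at 35.81 and 56.63 CPM in satellite glial cells. Mural cells were highest in both libraries for Col4a1, Col4a2 and, on 7 and 2 UMIs, Col4a4 (4.03% of all genes), satellite glial cells for Col5a3, Col23a1 and Col28a1 (3.26%), and non-myelinating Schwann cells for Col5a1, Col16a1 and Col27a1 (1.99%). Myelinating Schwann cells were highest for Col14a1 (2.03%), oligodendrocyte-like cells for Col9a3 (6.66%) and neurons for Col10a1 (19.0%). For Col4a4 the mural level was 68.57 CPM (27.57 to 141.3) and 63.26 CPM (7.661 to 228.5), which overlapped the 25.44 CPM (17.03 to 36.53) and 27.53 CPM (16.04 to 44.07) of fibroblasts. The class with the highest level was the same in both libraries for 28 of the 36 genes (77.8%), beside 57.1% of all genes.

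**Figure D1:**
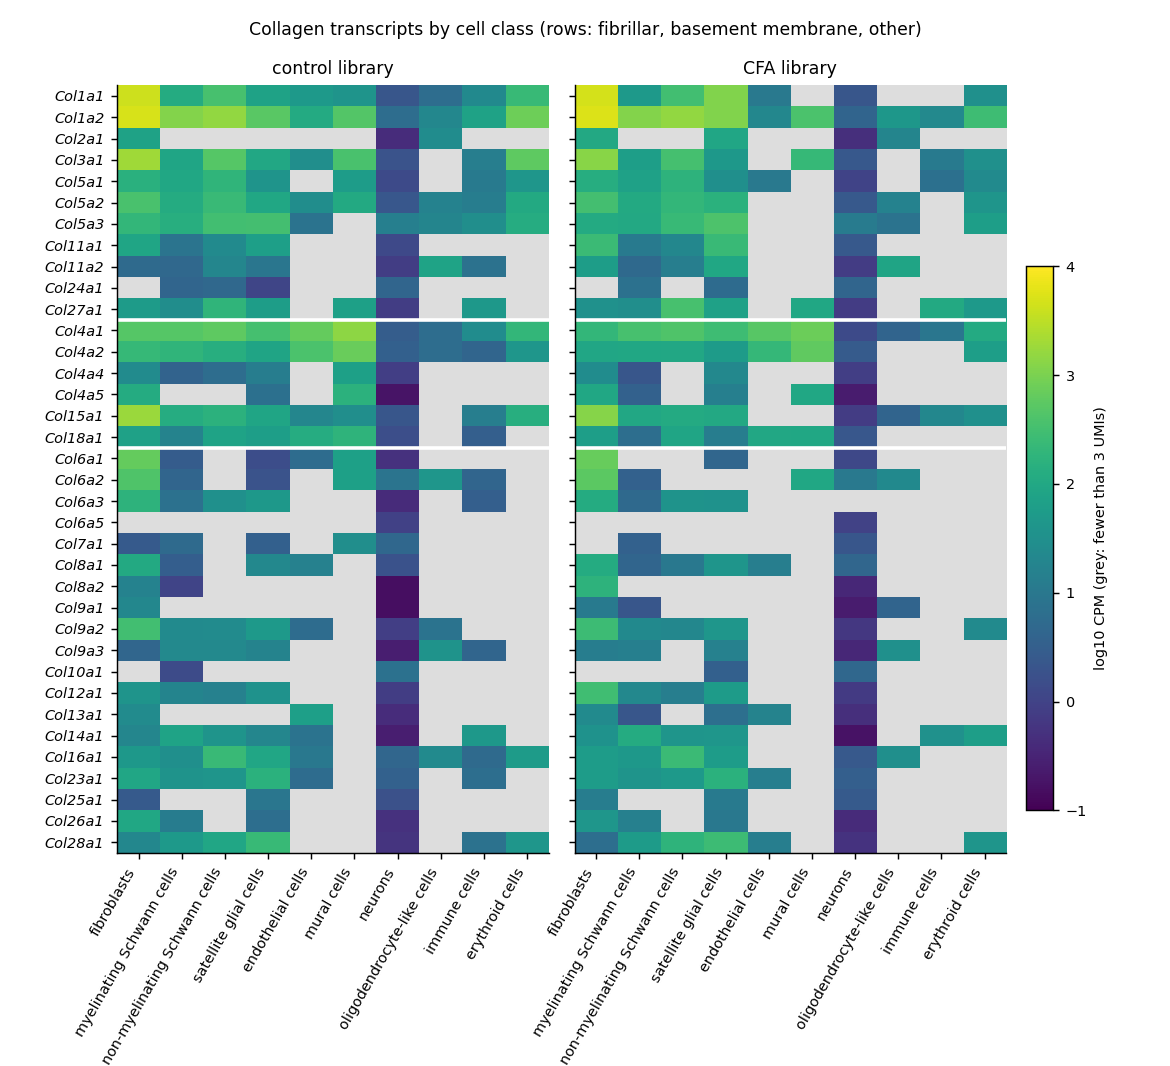
Level of each collagen gene with at least 50 UMIs (rows, in the order fibrillar, basement membrane, other) in each cell class (columns), as log10 CPM in the control library (left) and the CFA library (right), with classes holding fewer than 3 UMIs of the gene in grey. The brightest cells are Col1a1 and Col1a2 in fibroblasts, at 4095 and 4898 CPM in the control library, and the columns of neurons are the darkest.

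In fibroblasts, Col1a2 (chr6:4504814-4541544, plus strand, GENCODE M21 on GRCm38) and Col1a1 (chr11:94936224-94953042, plus strand), the chains of collagen I, led all collagens. Col1a2 stood at 4898 CPM (4770 to 5028) in the control and 5509 CPM in the CFA library, and Col1a1 at 4095 CPM (3978 to 4214) and 4838 CPM. At least 1 UMI of Col1a2 was found in 93.23% of control fibroblasts (90.90 to 95.12) and in 91.23% of CFA fibroblasts. Col3a1, the chain of collagen III that builds thin fibrils with collagen I, followed with 1898 CPM (1819 to 1980) and 1297 CPM (1209 to 1390). Col15a1, a collagen that bridges basement membranes and fibrils, was next with 1787 CPM (1711 to 1867) and 1250 CPM (1163 to 1341). Both were lower in the CFA library, with intervals that did not overlap those of the control.

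Of the collagen VI chains, Col6a1 was low in Schwann cells and satellite glial cells, while Col6a3 reached 26.7% and 29.0% of its fibroblast level in satellite glial cells. Low levels were not particular to collagen VI, since Col2a1 was at 0% of its fibroblast level in both Schwann cell classes of the control library. Fibroblasts held 663.1 CPM (616.6 to 712.1) and 675.2 CPM (612.0 to 743.2) of Col6a1. Without the cells in doubt Col6a1 was at 647.5 CPM (601.1 to 696.4) and 534.1 CPM (472.7 to 601.2), lower in the CFA library. In myelinating Schwann cells it reached 0.424% and 0.216% of the level in all fibroblasts. The fibroblast marker Dcn (decorin, a proteoglycan on collagen fibrils) stood at 0.418% and 0.328% there. Col6a1 in myelinating Schwann cells was thus near the share that Dcn reached. Without the cells in doubt Col6a2 was at 411.1 and 403.5 CPM, against 428.9 and 560.3 CPM over all fibroblasts. Col6a3, the longest of the 3 chains, was at 171.0 and 119.8 CPM there and also at 45.61 CPM (37.85 to 54.50) in control satellite glial cells, where Col6a1 had 4 UMIs in each library. Per Col6a1 UMI, control satellite glial cells held 30.2 UMIs of Col6a3 (11.5 to 113) and control fibroblasts 0.258 (0.219 to 0.302).

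The fibril-associated Col9a2 reached 311.4 CPM (279.8 to 345.5) and 270.4 CPM (231.0 to 314.7) in fibroblasts, and satellite glial cells followed with 49.38 and 42.57 CPM. Col5a2, a chain of the collagen V that starts fibrils, was at 366.6 and 319.0 CPM in fibroblasts, and non-myelinating Schwann cells came next with 243.6 and 204.7 CPM. Without the cells in doubt Col5a2 was at 367.2 and 216.4 CPM (178.0 to 260.5) in fibroblasts. The CFA interval then overlapped that of non-myelinating Schwann cells (156.2 to 263.5). Fibroblasts held 58.51% of the control Col26a1 UMIs, at 96.48 CPM (79.29 to 116.3), and myelinating Schwann cells came next with 12.31 CPM.

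The mix of collagens differed between the cell classes. In control fibroblasts 71.10% of the collagen UMIs were fibrillar, 16.45% basement membrane and 12.45% other. In control endothelial cells 75.82% (72.68 to 78.77) were basement membrane and 15.44% fibrillar, and in mural cells 64.79% (59.95 to 69.42) and 27.87%. The makeup of Schwann cells was closer to that of fibroblasts. Fibrillar chains gave 61.45% in myelinating and 69.31% in non-myelinating control cells, and basement membrane chains gave 28.00% and 19.84%. Control satellite glial cells were split into 50.20% fibrillar, 22.85% basement membrane and 26.95% other. Neurons were the only one of these 7 classes in which the other collagens led in both libraries, with 45.85% (44.16 to 47.54) and 47.95% (45.25 to 50.66).

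**Figure D2:**
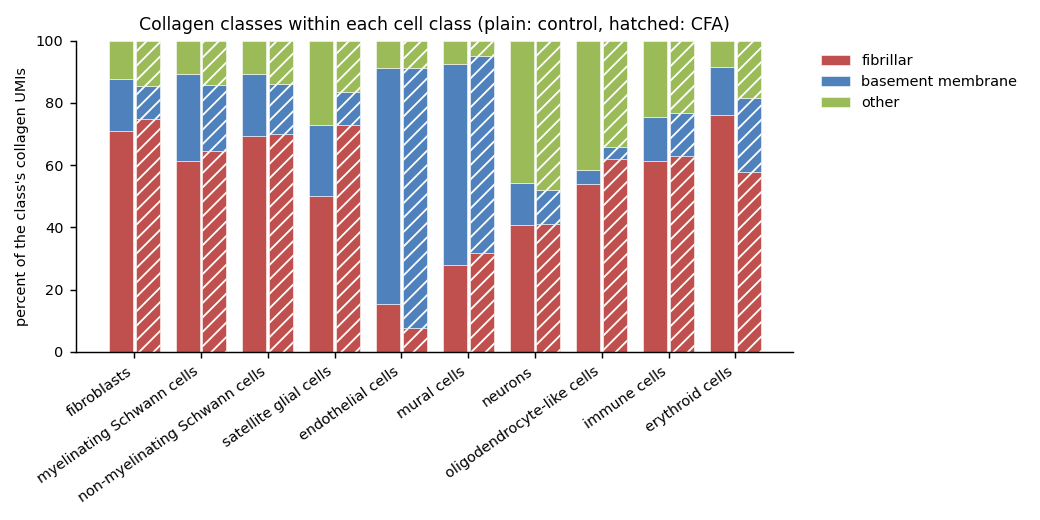
Percent of the collagen UMIs of each cell class (columns, plain bars for the control and hatched bars for the CFA library) that came from fibrillar, basement membrane and other collagen genes. Basement membrane collagens fill 75.82% of the control bar of endothelial cells and 16.45% of that of fibroblasts.

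The chains of collagen I did not keep to 1 proportion across the classes. Fibroblasts held 1.20 Col1a2 UMIs (1.15 to 1.24) per Col1a1 UMI in the control and 1.14 (1.08 to 1.20) in the CFA library. Myelinating Schwann cells held 10.1 (8.99 to 11.3) and 23.6 (18.6 to 30.5), and non-myelinating Schwann cells 4.49 (3.95 to 5.12) and 5.15 (4.09 to 6.54). Control satellite glial cells held 6.83 (5.90 to 7.95). The intervals of these 3 glial classes lay well above that of fibroblasts in the control library. Other control classes lay above it too, with 11.8 (4.30 to 44.9) in mural, 3.41 (1.96 to 6.25) in erythroid and 3.14 (1.92 to 5.32) in immune cells. Neurons held 2.88 (2.24 to 3.74) and endothelial cells 2.42 (1.48 to 4.07). Erythroid cells held 804.5 and 282.4 CPM of Col1a2, with Dcn at 124.8 and 80.69 CPM. The part of RNA from other cells in these levels was not tested.

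In the 3 glial classes of the control library Col1a2 lay closer to its fibroblast level than Col1a1 did. In CFA satellite glial cells the order was the reverse, with 20.8% for Col1a2 and 23.5% for Col1a1, over cells that include 2 with bone matrix UMIs. In myelinating Schwann cells its level was 1178 CPM in the control and 1204 CPM in the CFA library, which is 24.1% and 21.8% of the fibroblast level, while Dcn reached 0.418% and 0.328% and the median of the 10 fibroblast markers 1.83% and 1.51%. Of these markers Mfap5 was higher in myelinating Schwann cells than in fibroblasts. Col1a1 was at 2.86% and 1.05% of its fibroblast level. Col1a2 was found in 62.09% (60.07 to 64.07) of control myelinating Schwann cells, and Col1a1 in 7.409% (6.373 to 8.554). With every cell thinned to 500 UMIs, the shares for Col1a2 were 40.60% in control myelinating Schwann cells, 40.96% in non-myelinating Schwann cells, 19.18% in satellite glial cells and 79.21% in fibroblasts, and those for Col1a1 were 3.675%, 12.24%, 3.367% and 70.57%. In these classes the thinned shares left out between 1 and 71 control cells with too few UMIs.

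The stretch of sequence printed here lies upstream of the Col1a2 start site in RefSeq (GRCm38.p6, chr6:4505370-4505492, plus strand), within the GENCODE span of the gene and outside its exons. It is shown because the Col1a2 to Col1a1 proportion differed between the classes. Capitals mark the GC box letters GGGCGG, which begin 205 and 188 bases before the start site.
Col1a2: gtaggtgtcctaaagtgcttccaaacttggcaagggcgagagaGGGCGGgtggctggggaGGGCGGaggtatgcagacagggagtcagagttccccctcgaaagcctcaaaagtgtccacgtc

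**Figure D3:**
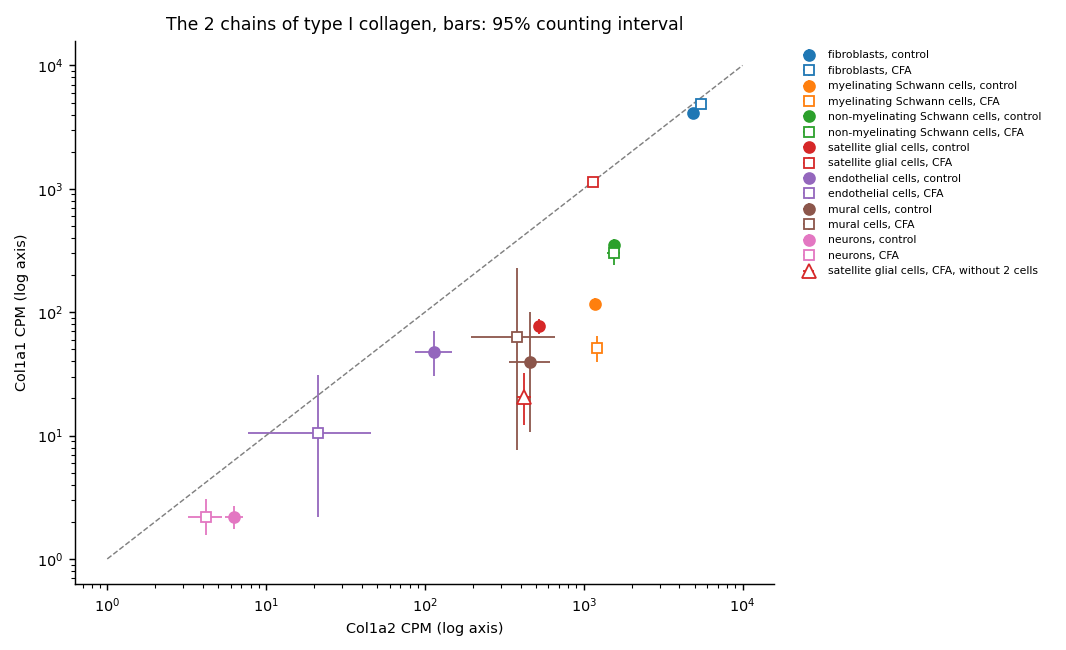
Level of Col1a1 (vertical log axis, CPM) against Col1a2 (horizontal log axis, CPM) for 7 cell classes, with filled circles for the control library, open squares for the CFA library, 95% counting intervals as bars and the line of equal levels dashed. Fibroblasts lie near the line, Schwann cells and control satellite glial cells lie well under it, and CFA satellite glial cells move from the line to 20.39 CPM of Col1a1 (triangle) without 2 cells with bone matrix UMIs.

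Satellite glial cells and non-myelinating Schwann cells each had a set of collagens above the fibroblast level. Col5a3, a chain of collagen V that is scarce in most tissues, reached 320.0 CPM (298.9 to 342.3) and 401.1 CPM (360.6 to 444.9) in satellite glial cells. It was 155% and 349% of the level in fibroblasts of the same library, which was 206.1 and 115.0 CPM. Non-myelinating Schwann cells followed at 310.3 CPM (273.5 to 350.7) in the control library, within the counting interval of satellite glial cells, and at 235.4 CPM (183.1 to 297.9) in the CFA library, below it.

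Col28a1, a collagen known from the peripheral nervous system, stood at 236.0 CPM (217.9 to 255.2) and 271.1 CPM (238.0 to 307.5) in satellite glial cells. Non-myelinating Schwann cells held 89.70 and 177.4 CPM of it and myelinating Schwann cells 49.59 and 56.03 CPM. Col23a1, a membrane-spanning collagen, was at 155.7 CPM (141.0 to 171.5) and 158.0 CPM (133.0 to 186.3) in satellite glial cells and below 100 CPM in every other class with at least 10 UMIs.

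Within control satellite glial cells, the interferon-led cluster had less Col5a3 (223.1 CPM, 190.2 to 260.1, against 356.9 CPM, 330.7 to 384.6, in the other cluster) and less Col28a1 (146.5 against 270.0 CPM), and more Col1a2 (833.6 CPM, 768.7 to 902.5, against 408.4 CPM). It also held more Col3a1 (231.3 against 49.42 CPM) and more Col18a1 (151.9 against 30.17 CPM). The satellite glial markers averaged 0.466 of their highest cluster level in it, against 0.797 in the other cluster. Its 10 leading genes held 0 of these markers, against 5. Control non-myelinating Schwann cells held 1562 CPM of Col1a2, 481.2 CPM of Col3a1 and 89.70 CPM of Col28a1, so the interferon-led cluster lay between. For Col5a3 (310.3 CPM) and Col18a1 (78.79 CPM) it did not. A mixture of cell classes in it was not tested. This cluster held 365 of the 1274 control but 14 of the 452 CFA satellite glial cells, and values within the larger cluster stand beside the differences between the libraries in this class.

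Non-myelinating Schwann cells led for Col16a1, a fibril-associated collagen, with 247.3 CPM (214.5 to 283.6) and 255.9 CPM (201.2 to 320.7). Satellite glial cells followed in the control library with 89.72 CPM. In the CFA library they were at 58.26 CPM, which was 99.9% of the fibroblast level. Non-myelinating Schwann cells also led for the fibrillar Col27a1, which reached 187.9 CPM (159.5 to 219.9) and 358.2 CPM (293.0 to 433.6). Col5a1, the chain found in nearly all forms of collagen V, was at 185.5 CPM (157.2 to 217.3) and 174.0 CPM (129.5 to 228.8) there, and fibroblasts came next with 151.7 and 127.9 CPM. The intervals of these neighbours overlapped. The gene highest in myelinating Schwann cells among the classes was Col14a1, a fibril-associated collagen that regulates fibril width, with 80.89 CPM (70.78 to 92.05) and 120.8 CPM (103.1 to 140.6). Single clusters of other classes reached such levels. The immune cluster led by Cxcl2 and Ccl3 held 104.5 CPM (74.32 to 142.9) and 52.52 CPM (29.39 to 86.62), and the CFA fibroblasts of the cluster with low Dcn 204.2 CPM (124.7 to 315.4).

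Upstream sequences are given for a collagen gene highest in fibroblasts and, without Col23a1, for those highest in satellite glial cells in both libraries. Each is the 250 bases before the RefSeq start site (GRCm38.p6). They are Col3a1 (chr1:45311288-45311537, plus strand), Col5a3 (chr9:20815068-20815317, minus strand) and Col28a1 (chr6:8192618-8192867, minus strand), all written 5′ to 3′ in the direction of transcription. Capitals mark 3 motifs, searched on both strands. The TATA box was searched as TATAAA, and the second motif was CCAAT. The GC box, with the letters given for Col1a2, appears in Col5a3 as its reverse complement.
Col3a1: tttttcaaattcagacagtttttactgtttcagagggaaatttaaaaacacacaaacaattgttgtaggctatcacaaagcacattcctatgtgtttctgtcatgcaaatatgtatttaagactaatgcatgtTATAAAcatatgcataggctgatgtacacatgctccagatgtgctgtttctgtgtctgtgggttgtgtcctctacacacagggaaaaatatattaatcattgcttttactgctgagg
Col5a3: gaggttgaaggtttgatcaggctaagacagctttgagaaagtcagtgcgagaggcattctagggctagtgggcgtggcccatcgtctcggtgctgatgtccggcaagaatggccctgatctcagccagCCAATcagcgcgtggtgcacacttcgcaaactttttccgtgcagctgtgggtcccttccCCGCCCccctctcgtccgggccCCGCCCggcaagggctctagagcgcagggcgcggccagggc
Col28a1: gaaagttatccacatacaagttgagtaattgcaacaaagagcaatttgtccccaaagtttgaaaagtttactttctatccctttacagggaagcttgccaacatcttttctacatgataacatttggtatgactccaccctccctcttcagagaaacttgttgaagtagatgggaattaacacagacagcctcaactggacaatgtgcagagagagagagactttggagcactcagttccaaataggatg

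The TATA letters of Col3a1 begin 117 bases before the start site, the CCAAT letters of Col5a3 122 bases and its GC boxes 63 and 41 bases before it, and none of the 3 motifs is in the stretch of Col28a1. RefSeq windows of 250 bases before to 50 bases after a start site were at hand for 35 of the 44 genes (38 windows). The GC box letters were in 60.5% of these windows and in 35.7% of all 32851 windows, the CCAAT letters in 34.2% and 37.4%, and the TATA letters in 13.2% and 13.6%. Such a match describes the letters and does not show a site in use.

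Basement membrane collagens had another order of classes. Col4a1, the main chain of collagen IV with Col4a2, was highest in mural cells, which held 1401 CPM (1181 to 1650) and 759.2 CPM (486.4 to 1130). Endothelial cells followed at 654.4 CPM (585.8 to 728.8) and 491.9 CPM (413.8 to 580.5), then non-myelinating Schwann cells at 577.0 and 426.4 CPM. Fibroblasts and myelinating Schwann cells were next in the control library with 485.9 CPM (446.3 to 528.1) and 474.5 CPM (449.5 to 500.5), which overlapped. Neurons were at 3.028 and 1.308 CPM.

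Col4a2 kept the same leading classes, with 715.1 CPM (560.5 to 899.1) and 601.0 CPM (361.8 to 938.5) in mural cells and 377.6 CPM (325.9 to 435.1) and 214.3 CPM (164.0 to 275.3) in endothelial cells. Per Col4a2 UMI there were 1.73 Col4a1 UMIs (1.45 to 2.08) in control endothelial cells, 1.96 (1.47 to 2.63) in mural cells and 2.21 (1.90 to 2.57) in fibroblasts, against 3.92 (3.38 to 4.56) in satellite glial cells and 4.21 (3.42 to 5.22) in non-myelinating Schwann cells. Col18a1, whose end fragment is endostatin, was at 176.3 CPM (104.5 to 278.7) in control mural cells and 124.5 CPM (95.70 to 159.3) in control endothelial cells, and their intervals overlapped. Of the minor collagen IV chains, Col4a5 was at 166.5 CPM (97.00 to 266.6) in mural cells and 116.7 CPM (97.67 to 138.2) in fibroblasts of the control library. Col13a1, a membrane-spanning collagen, was highest in control endothelial cells with 67.22 CPM (46.55 to 93.93), and fibroblasts had 26.31 CPM (17.75 to 37.56). In the CFA library, with 38 Col13a1 UMIs over all named cells, fibroblasts were highest.

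Col4a1 (chr8:11198423-11312826, minus strand) and Col4a2 (chr8:11312805-11449287, plus strand) lie head to head. Their RefSeq start sites are 21 bases apart on opposite strands, and the 22 bases that hold both (GRCm38.p6, chr8:11312805-11312826, written on the plus strand, the strand of Col4a2) are shown because both genes had mural cells first and endothelial cells second in the control library. Capitals mark a GC box.
Col4a1 and Col4a2: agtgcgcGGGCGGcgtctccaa

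In the CFA library the sum of the basement membrane collagens was lower than in the control in each of the 9 classes with at least 50 of their UMIs. Fibroblasts held 2740 CPM (2645 to 2838) and 1744 CPM (1641 to 1851), which gives a log2 ratio of -0.65 (-0.75 to -0.55). Without the cells in doubt this ratio was -0.43 (-0.53 to -0.33). Myelinating Schwann cells held 808.9 and 551.6 CPM, with a log2 ratio of -0.55 (-0.67 to -0.43), and non-myelinating Schwann cells 963.7 and 733.5 CPM, with one of -0.39 (-0.62 to -0.17).

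In endothelial cells the sum was 1184 CPM (1091 to 1283) and 815.2 CPM (713.7 to 927.1), a log2 ratio of -0.54 (-0.76 to -0.32). The ratios were -0.66 (-1.12 to -0.22) in mural cells, -0.42 (-0.69 to -0.15) in neurons, -0.25 (-0.40 to -0.10) in satellite glial cells, -0.83 (-1.65 to -0.02) in erythroid cells and -0.46 (-1.38 to 0.38) in immune cells. Within the larger satellite glial cluster the sum was not taken. There, without the cells with bone matrix UMIs, Col4a1 was at -0.19 (-0.41 to 0.02) and Col4a2 at -0.46 (-0.96 to 0.02). Col15a1 was at 0.16 (-0.22 to 0.53) and Col18a1 at -1.25 (-2.33 to -0.30). The interval of the summed ratio lay below 0 in all of the classes compared but immune cells. The median log2 ratio of all genes was between -0.06 and 0.06 in these classes.

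Dcn moved the same way in several of them. It was at 41123 CPM in control and 29255 CPM in CFA fibroblasts, at 172.0 and 96.05 CPM in myelinating Schwann cells, at 88.49 and 13.65 CPM in non-myelinating Schwann cells and at 411.2 and 42.17 CPM in endothelial cells. Without the cells in doubt Dcn was at 41949 and 34789 CPM in fibroblasts, a log2 ratio of -0.27, against -0.49 over all fibroblasts. In mural cells it was 303.7 and 158.2 CPM, in neurons 77.99 and 61.97 CPM, in satellite glial cells 54.66 and 53.78 CPM, and in immune cells it was higher in the CFA library, at 70.25 and 128.9 CPM. Other marker sums moved too. In endothelial cells the 10 markers of myelinating Schwann cells together were at 4055 and 2393 CPM, those of neurons at 816.5 and 242.5 CPM and those of satellite glial cells at 3661 and 3658 CPM. In fibroblasts the same sums were 3752 and 2558, 754.3 and 302.8, and 3479 and 3237 CPM. In satellite glial cells the markers of myelinating Schwann cells were at 7964 and 4971 CPM and those of neurons at 731.7 and 339.5 CPM. The fibroblast markers were at 1436 and 871.6 CPM there, while those of non-myelinating Schwann cells were at 2047 and 2225 CPM. The part of RNA from other cells in the lower sums was not tested.

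Endothelial cells had 4 collagens with at least 50 UMIs. None was 2-fold higher in the CFA library (1.64% of all genes tested in this class were) and 1 was 2-fold lower (2.97% of all genes). That 1 is Col1a2, with 58 and 6 UMIs and a log2 ratio of -2.44 (-3.95 to -1.23). In these cells it was at 2.34% and 0.383% of the fibroblast level, while Dcn was at 1.000% and 0.144% and the summed level of the 10 fibroblast markers was 1408 and 305.7 CPM. Col4a2 had a log2 ratio of -0.82 (-1.26 to -0.39), Col4a1 of -0.41 (-0.71 to -0.12) and Col18a1 of -0.34 (-1.04 to 0.32). The 10 endothelial markers together were at 15533 and 16273 CPM. In mural cells 3 genes could be compared, and Col4a1 was lower in the CFA library, by -0.88 (-1.57 to -0.25).

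In fibroblasts 24 collagens had at least 50 UMIs in the 2 libraries. The interval of the log2 ratio was above 0 for 6 of them (12.6% of all 5396 genes tested in fibroblasts) and below 0 for 8 (9.47%), and the median was -0.20, against 0.03 for all genes. The ratio passed 2-fold upwards for 3 (2.52% of all genes) and downwards for 3 (2.71%). Upwards these were Col8a2, from 16.66 CPM (10.03 to 26.02) to 170.0 CPM (139.1 to 205.8), Col12a1, from 38.59 CPM (28.04 to 51.81) to 293.1 CPM (251.9 to 339.0), and the minor fibrillar chain Col11a1, from 88.59 to 260.7 CPM.

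Each of these 3 rested on few cells. The fibroblast cluster with low Dcn held 91.4% of the Col8a2 UMIs and 93.9% of the Col12a1 UMIs of CFA fibroblasts. A single cell with bone matrix UMIs held 119 of the 161 Col11a1 UMIs. Without both, 22 collagens kept at least 50 UMIs, the interval was above 0 for 0 of them (9.97% of all 5006 genes) and below 0 for 9 (9.35%), 0 were 2-fold higher (1.14%) and 2 were 2-fold lower (2.58%). Col11a1 then had a log2 ratio of -0.51 (-1.13 to 0.08), and Col8a2 and Col12a1 had too few UMIs to be compared.

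The genes 2-fold lower were Col4a2, Col4a1 and Col26a1. Col4a2 was at 220.1 CPM (193.8 to 249.1) and 92.30 CPM (69.90 to 119.6), with a log2 ratio of -1.25 (-1.70 to -0.83), and -1.17 (-1.63 to -0.73) without the cells in doubt. Col4a1 was at 485.9 and 205.6 CPM (171.4 to 244.7), with ratios of -1.24 (-1.53 to -0.96) and -1.06 (-1.36 to -0.77). Col26a1 was at 96.48 and 42.10 CPM, with ratios of -1.20 and -0.96 (-1.64 to -0.33). Col3a1 had a ratio of -0.55 (-0.67 to -0.43), which was -0.42 without the cells in doubt, and Col15a1 one of -0.52 (-0.64 to -0.40), which was -0.28 (-0.41 to -0.16).

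The collagen I chains were slightly higher in the CFA library over all fibroblasts, with a log2 ratio of 0.24 (0.17 to 0.31) for Col1a1 and 0.17 (0.11 to 0.23) for Col1a2. Without the cells in doubt the ratios were -0.06 (-0.14 to 0.01) and -0.05 (-0.12 to 0.01), so the direction hung on these cells. The same held for the sum of the fibrillar collagens, with 0.10 (0.06 to 0.14) over all cells and -0.14 (-0.19 to -0.10) without them, and for the sum of the other collagens, with 0.26 (0.17 to 0.35) and -0.22 (-0.33 to -0.11). With every cell weighted equally the fibrillar ratio was -0.07. All collagens together had a ratio of 0.02 (-0.01 to 0.05) in fibroblasts, and -0.20 (-0.24 to -0.16) without these cells.

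**Figure D4:**
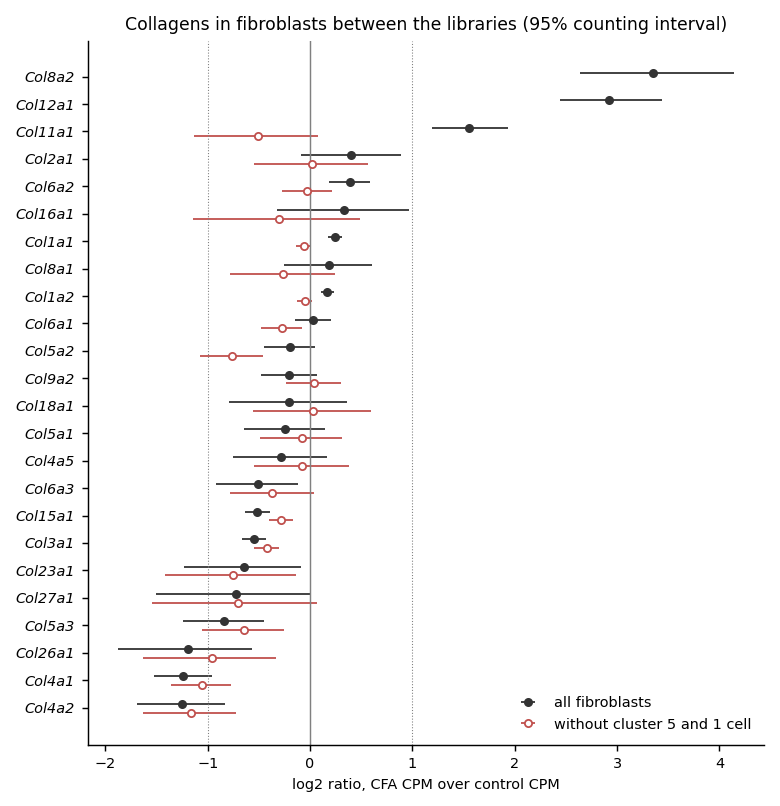
Log2 ratio of CFA to control CPM (horizontal axis) of the 24 collagens with at least 50 UMIs in fibroblasts (rows), over all fibroblasts and without the cells in doubt, with 95% counting intervals as bars. Col8a2 and Col12a1 stand at 3.35 and 2.93 over all cells and have no second point because fewer than 50 UMIs remain, Col11a1 crosses 0, and Col4a1 and Col4a2 stay below -1.

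Fibroblasts fell into 6 clusters when grouped again without collagens. Cluster 0 (183 control and 107 CFA cells) was named meningeal-like from its markers, and clusters 2 (94 and 59 cells) and 3 (121 and 29 cells) endoneurial-like, although the stress genes Tnfaip3, Icam1 and Ccl7 led cluster 3. Clusters 1 and 4 stayed unnamed, as did cluster 5, led by the transporter genes Slc4a10, Slc26a7 and Slc47a1. The meningeal markers averaged 0.548 of their highest cluster level in cluster 0 and 0.566 in cluster 1, with 4 detected in each. Of these markers Ptgds was among the leading genes of both clusters. Slc47a1 is on the meningeal list too, so the name of cluster 0 rests on part of that list.

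Cluster 2 carried the most collagen, 3.40% of its UMIs in the control (3.32 to 3.48) and 3.04% in the CFA library (2.93 to 3.15), against 1.16% and 1.07% in cluster 0. Its control cells had 8510 CPM of Col1a1 (8127 to 8908), 4714 CPM of Col3a1 (4429 to 5012), 3594 CPM of Col15a1 (3346 to 3855) and 446.9 CPM of Col8a1 (362.4 to 545.2). Within cluster 2 Col4a1 was lower in the CFA library, at 1276 CPM (1130 to 1436) and 733.9 CPM (575.3 to 922.8). CFA Col1a1 was at 7952 CPM (7408 to 8526) there and Col6a1 at 903.1 and 924.9 CPM. Col4a1 was lower too in cluster 0, at 180.4 and 72.30 CPM, and in cluster 1, at 364.6 and 101.1 CPM, without overlap of the intervals. In cluster 4 it was at 539.1 and 366.6 CPM, and the intervals overlapped. Cluster 0 held more Col4a5 than cluster 2, with 162.4 CPM (124.8 to 207.7) and 165.2 CPM (113.0 to 233.3), against 55.29 CPM (28.57 to 96.58) in control cluster 2. Control clusters 3 and 4 were at 136.4 CPM (95.02 to 189.7) and 111.0 CPM (60.68 to 186.2), and their intervals overlapped that of cluster 0. Col9a2 was at 386.6 and 361.5 CPM in cluster 0 and at 356.8 and 375.4 CPM in cluster 1.

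Cluster 5 had a collagen set of its own. Its Dcn level was 1871 and 2022 CPM, while that of the other clusters lay between 20711 and 52873 CPM. No Col15a1 was counted in its 5 control and 32 CFA cells. In CFA cells it had 1736 CPM of Col12a1 (1485 to 2017), 980.2 CPM of Col8a2 (794.0 to 1197), 1460 CPM of Col6a1 (1231 to 1720), 1419 CPM of Col6a2 (1193 to 1676) and 204.2 CPM of Col14a1 (124.7 to 315.4). The control cells of this cluster had 1404 CPM of Col6a1 (966.2 to 1971) and 425.3 CPM of Col8a2 (204.0 to 782.2). With 5 cells the control intervals are wide, and the cluster made up 5 of 591 control and 32 of 399 CFA fibroblasts.

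**Figure D5:**
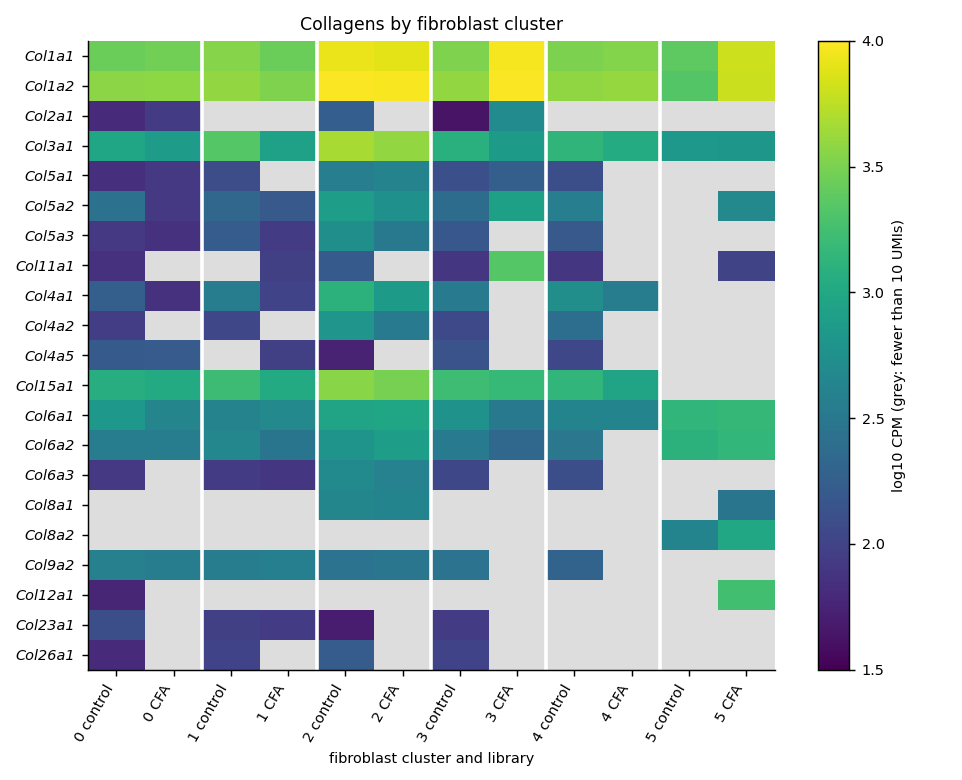
Level (log10 CPM) of 21 collagens (rows) in each fibroblast cluster and library (columns), with fewer than 10 UMIs in grey. Cluster 2 is brightest for Col3a1 and Col15a1, and cluster 5 stands out by Col8a2 and CFA Col12a1 and by the lack of Col15a1. CFA cluster 3 is brightest for Col1a1 and Col11a1. There the cell with bone matrix UMIs held 331 of 511 Col1a1 UMIs and 119 of 120 Col11a1 UMIs.

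In myelinating Schwann cells 19 collagens could be compared. None was 2-fold higher in the CFA library (0.944% of all genes), and 3 were 2-fold lower (2.54%). Those were Col18a1, from 17.23 to 6.549 CPM, Col1a1, from 117.1 to 50.94 CPM with a log2 ratio of -1.20 (-1.59 to -0.83), and Col4a2, from 189.9 CPM (174.2 to 206.6) to 94.59 CPM (79.03 to 112.3). In the control library 1 cell gave 44 of the 333 Col1a1 UMIs of this class, and the ratio without it was not taken. Col1a2 had a ratio of 0.03 (-0.06 to 0.12). Col14a1 and Col16a1 were higher in the CFA library, with ratios of 0.58 (0.28 to 0.87) and 0.62 (0.13 to 1.11).

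In non-myelinating Schwann cells 0 of 13 passed 2-fold in either direction (1.27% of all genes upwards and 2.87% downwards). Col28a1 and Col27a1 came close to it, with log2 ratios of 0.98 (0.44 to 1.52) and 0.93 (0.56 to 1.30), from 89.70 CPM (70.43 to 112.6) to 177.4 CPM (132.5 to 232.6) for Col28a1. Col3a1 and Col4a1 were lower, with ratios of -0.51 (-0.84 to -0.19) and -0.44 (-0.73 to -0.15).

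In satellite glial cells 24 collagens could be compared, 6 of which were 2-fold higher (1.15% of all genes) and 2 of which were 2-fold lower (4.14%) in the CFA library. Col1a1 was at 76.90 and 1137 CPM and Col1a2 at 525.5 and 1147 CPM. Of the CFA Col1a1 UMIs in this class, 349 and 648 came from 2 of the 3 cells with bone matrix UMIs, in which 17.1% and 25.6% of all UMIs were collagen and the satellite glial markers Fabp7 and Apoe had 0 UMIs. Without them 22 genes could be compared, 1 was 2-fold higher (0.959%) and 4 were 2-fold lower (4.18%). Col1a1 was then at 20.39 CPM (12.08 to 32.22) in CFA cells, with a log2 ratio of -1.92 (-2.70 to -1.22), Col1a2 had one of -0.33 (-0.50 to -0.16), and the Col1a2 to Col1a1 proportion was 20.6 (12.8 to 35.1).

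The gene still 2-fold higher was Col14a1, from 19.98 to 41.91 CPM with a log2 ratio of 1.07 (0.42 to 1.70). Those 2-fold lower were Col18a1, with 169 and 12 UMIs and a ratio of -2.23 (-3.21 to -1.39), Col1a1, Col3a1 at -1.10 (-1.61 to -0.62) and Col5a1 at -1.04 (-1.87 to -0.29). Col5a3 had a ratio of 0.34 (0.16 to 0.52), and Col28a1 and Col23a1 had intervals that held 0.

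The cluster led by interferon-response genes held 111 of the 169 control Col18a1 UMIs and 169 of the 264 control Col3a1 UMIs. Within the larger cluster (909 control and 436 CFA cells, without those with bone matrix UMIs) Col18a1 had a ratio of -1.25 (-2.33 to -0.30) and Col1a1 one of -1.67 (-2.59 to -0.86), both still past 2-fold. Col3a1, at -0.77 (-1.47 to -0.13), Col5a1, at -0.50 (-1.44 to 0.37), and Col14a1, at 0.935 (0.260 to 1.603), were not. Col1a2 was at -0.08 (-0.27 to 0.11) there and Col5a3 at 0.20 (0.01 to 0.39).

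In neurons, collagen levels were low and the depth was high, with medians of 43660.0 and 35110.0 UMIs per cell. Col1a2 and Col1a1 were at 0.128% and 0.0531% of the fibroblast level in the control library, under the 0.190% of Dcn. With every cell thinned to 500 UMIs, Col1a2 was found in 0.4534% of control neurons, against 21.90% (19.11 to 24.88) without thinning. Of 20 collagens compared, 1 was 2-fold higher in the CFA library (1.01% of all genes) and 3 were 2-fold lower (1.30%). The higher one was Col8a1, with 1.838 and 4.401 CPM and a log2 ratio of 1.26 (0.77 to 1.75). The lower ones were Col15a1, Col4a1 and Col7a1, with ratios of -1.51 (-2.48 to -0.66), -1.21 (-1.94 to -0.54) and -1.10 (-1.65 to -0.58).

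A few collagens were set apart by neuron cluster. Col7a1, the chain of the anchoring fibrils of skin, reached 40.05 CPM (33.79 to 47.12) and 32.08 CPM (21.48 to 46.07) in the cluster led by Mrgpra3, an itch receptor gene. This cluster had 53 control and 16 CFA cells and held 145 of the 182 control and 29 of the 37 CFA neuronal Col7a1 UMIs. Within it the intervals of the libraries overlapped. Col6a2 was at 34.04 CPM (28.18 to 40.77) and 34.50 CPM (27.09 to 43.31) in the cluster led by Dcdc2a and Sstr2. Neurons as a whole held 0.0604 Col6a1 UMIs (0.0364 to 0.0948) per Col6a2 UMI, against 1.55 (1.38 to 1.74) in fibroblasts.

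Col10a1, best known from cartilage, and Col18a1 were highest in the cluster led by Sst and Nppb, peptide genes of itch neurons. Col10a1 was at 23.88 CPM (12.72 to 40.84) in its 12 control cells and 59.26 CPM (39.98 to 84.59) in its 10 CFA cells, where 1 cell gave 24 of the 30 UMIs. The control interval overlapped that of the cluster led by Dcdc2a and Sstr2, at 15.87 CPM (11.95 to 20.65). That cluster was at 8.857 CPM (5.333 to 13.83) in the CFA library. The CFA level without the 1 cell was not taken. Col18a1 was at 27.56 CPM (15.42 to 45.45) and 55.31 CPM (36.75 to 79.93). In the largest neuron cluster, led by Htr3a, Col5a3 was at 29.63 CPM (26.72 to 32.78) and 24.31 CPM (20.49 to 28.63), and the fibrillar Col24a1 at 9.015 and 8.669 CPM. That cluster also held 65 of the 71 control and 69 of the 74 CFA neuronal Col8a1 UMIs.

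The enzymes and chaperones that process collagen were measured from a list of 29, of which 27 had at least 50 UMIs and 11 were highest in fibroblasts in both libraries (3.92% of all genes). Those with the most UMIs were P4hb, a subunit of prolyl 4-hydroxylase, Ppib, a proline isomerase, Colgalt1, a collagen galactosyltransferase, and Mia3, which exports procollagen from the endoplasmic reticulum. In fibroblasts P4hb was at 664.0 and 497.1 CPM, Ppib at 244.7 and 252.6 CPM, Colgalt1 at 90.34 and 90.68 CPM and Mia3 at 218.4 and 197.5 CPM. Of the 15 that could be compared in fibroblasts, 0 passed 2-fold (2.52% of all genes upwards and 2.71% downwards), the interval was above 0 for 1 (12.6% of all genes) and below 0 for 3 (9.47%), and the median log2 ratio was -0.14.

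Of 16 genes for collagen breakdown and its inhibitors, 14 had at least 50 UMIs and 5 were highest in fibroblasts in both libraries, again beside 3.92% of all genes. The gelatinase Mmp2 was at 561.3 and 474.4 CPM in fibroblasts, a log2 ratio of -0.24 (-0.45 to -0.04), and Mmp14, which activates it, at 201.7 and 157.1 CPM. The inhibitor Timp3 was highest in mural cells with 3409 and 3353 CPM, against 1253 and 1363 CPM in fibroblasts. The 8 genes compared in fibroblasts had a median log2 ratio of 0.05, with intervals above 0 for 2 (12.6% of all genes) and below 0 for 3 (9.47%). Past 2-fold was 1 of them (2.52%), Mrc2, an uptake receptor for collagen, at 121.0 and 268.8 CPM with a ratio of 1.15 (0.82 to 1.49), and 0.26 (-0.17 to 0.68) without the fibroblast cluster with low Dcn. Mmp14 had a ratio of -0.36 (-0.72 to -0.01) and Timp2 one of 0.30 (0.11 to 0.47).

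Of 11 collagen receptor genes, 10 had at least 50 UMIs and 2 were highest in fibroblasts in both libraries (3.92% of all genes). The integrin chain Itgb1 was highest in mural cells, at 1254 and 1676 CPM, and the kinase receptor Ddr1 in oligodendrocyte-like cells, at 262.4 and 237.0 CPM. Of the 4 receptors compared in fibroblasts, with a median log2 ratio of 0.22, 1 was 2-fold higher in the CFA library (2.52% of all genes), namely Itga11, an integrin chain that binds collagen I, at 19.30 and 45.34 CPM with a ratio of 1.23 (0.37 to 2.11), and 0.58 (-0.67 to 1.78) without the cells in doubt. The adhesion receptors Adgrg1, which binds collagen III, and Adgrg6, which binds collagen IV and is needed for myelination by Schwann cells, were at 316.3 and 314.8 CPM and at 219.8 and 253.2 CPM in satellite glial cells. In myelinating Schwann cells Adgrg1 was lower in the CFA library, from 67.53 to 25.47 CPM with a log2 ratio of -1.41 (-1.97 to -0.88), and Adgrg6 higher, from 84.41 to 165.9 CPM with a ratio of 0.97 (0.71 to 1.24).

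Of 17 other basement membrane genes, 15 had at least 50 UMIs and 4 were highest in fibroblasts in both libraries (3.92% of all genes). The 7 compared in endothelial cells had a median log2 ratio of -0.40, and the interval was above 0 for 0 (11.9% of all genes in this class) and below 0 for 1 (8.88%), which was Sparc, a collagen-binding protein, with 5302 and 3668 CPM and a log2 ratio of -0.53 (-0.64 to -0.43). Hspg2, the gene of perlecan, was lower in CFA fibroblasts, at 503.4 and 249.4 CPM with a ratio of -1.01 (-1.28 to -0.75), and -0.81 (-1.08 to -0.55) without the cells in doubt. Nid1, which joins collagen IV to laminin, was at 949.9 and 918.1 CPM in fibroblasts, and its interval held 0. The laminin chain Lamb1 was highest in non-myelinating Schwann cells, at 626.7 and 597.0 CPM.

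In oligodendrocyte-like cells, the minor fibrillar chain Col11a2 was at 77.91 CPM (55.14 to 106.9) and 83.09 CPM (63.56 to 106.7), and Col9a3 at 36.91 CPM (21.87 to 58.33) and 32.69 CPM (20.95 to 48.64). In satellite glial cells Col9a3 was at 16.96 CPM (12.37 to 22.70) and 15.68 CPM (8.575 to 26.32). Over all named cells Col25a1 had 98 and 63 UMIs, Col6a5 40 and 17, Col9a1 35 and 17 and Col2a1 122 and 171. Of the CFA Col2a1 UMIs, 22, 45 and 35 came from the 3 cells with bone matrix UMIs.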

How the data were processed

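Single-cell libraries of TG cells, 1 control and 1 CFA, were read from the deposited matrices of raw UMI counts per gene and cell, which the authors made with the BD Rhapsody system. The submitters' processing notes name fastp and GRCm38. The aligner and counter settings are not given in the sources used here. The files held 7298 control and 4080 CFA barcodes with 48916096 and 22096268 UMIs.

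Cells with at least 150 genes and at most 25% mitochondrial UMIs were kept. They were clustered with Seurat 5.3.0 in R 4.3.3 on 2000 variable genes, without collagens and their partner genes, with 20 principal components, 20 neighbours and Louvain resolution 0.8 (fibroblasts again with 15 components and resolution 0.6). A cluster took the class whose markers it expressed most, if at least 3 of them were detected and its 10 leading genes held no more markers of another class than of its own. Gfra3, listed for non-myelinating Schwann cells, was left out of the naming after the data were seen.

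UMIs were summed per class and library (Python 3.11.15, scipy 1.17.1, pandas 2.3.3, numpy 2.4.6). Levels carry exact Poisson intervals, shares Clopper-Pearson intervals and log2 ratios exact binomial intervals, all at 95%. A ratio was taken where a gene had at least 50 UMIs in the class over both libraries. With 1 library a group there was no test and no p-value. The calculation was tested on simulated data. Doublet scores came from Scrublet in scanpy 1.11.5.

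All collagens were accounted for, with values for those with at least 50 UMIs in named cells. From each list of partner genes the text names the 4 with the most UMIs and those past 2-fold in fibroblasts (endothelial cells for basement membrane genes). Hspg2 in fibroblasts and the Adgrg1 and Adgrg6 ratios were chosen after their values were seen. The genes, lists and classes were chosen with earlier results of these data known.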

Additional observations from a re-analysis of the deposited data

Results flagged for a closer look

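Col16a1 and Col5a3 differed between the libraries in opposite directions in different cell classes, each with an interval away from 0. For each gene the pair of classes with the widest gap is given. The differences between the classes were not tested, since each library is 1 sample.

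Col16a1 was higher in the CFA library in myelinating Schwann cells, with 86 and 64 UMIs and a log2 ratio of 0.62 (0.13 to 1.11), and lower in neurons, with 172 and 41 UMIs and a ratio of -0.87 (-1.40 to -0.37). The ratios lay 1.49 apart. Col16a1 was also lower in satellite glial cells, at -0.61 (-1.07 to -0.17) without the cells with bone matrix UMIs, and within the larger satellite glial cluster at -0.29 (-0.81 to 0.20).

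Without the cells in doubt, Col5a3 was higher in the CFA library in satellite glial cells, with 849 and 358 UMIs and a ratio of 0.34 (0.16 to 0.52), and lower in fibroblasts, with 235 and 69 UMIs and a ratio of -0.65 (-1.06 to -0.25). The ratios lay 0.987 apart. Col5a3 was lower too in myelinating Schwann cells at -0.39, in non-myelinating Schwann cells at -0.40 and in neurons at -0.26. The satellite glial cluster led by interferon-response genes, which held 223.1 CPM of Col5a3 against 356.9 CPM in the other control cluster, had 365 control and 14 CFA cells. Within the other cluster Col5a3 was at 356.9 and 410.3 CPM, with a ratio of 0.20 (0.01 to 0.39).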

How the results depend on the processing

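Alternatives covered the cell filter, doublets, clustering, totals, centring, cell weighting and minimum UMIs, and 5 chosen after the data were seen (without the 3 cells with bone matrix UMIs, without fibroblast cluster 5, without both, without the interferon-led satellite glial cluster, and with Gfra3 counted in naming). The share of collagen UMIs in fibroblasts was 47.12% (control) and 60.09% (CFA) with 300 genes and 10% mitochondrial counts, 45.01% (control) at resolution 1.6, 46.21% (control) without the interferon-led cluster, 45.64% and 49.86% with Gfra3, and in the CFA library 44.10% without cells of a Scrublet score above 0.25, 57.80% with collagens kept in clustering, 51.04% without the bone matrix cells, 42.90% without cluster 5 and 45.12% without both. The fibrillar ratio in fibroblasts was -0.073 with equal weights, 0.51 under the stricter filter, -0.089 without doublets, 0.40 with collagens in clustering, -0.062 without the bone matrix cells, 0.052 without cluster 5 and -0.14 without both. The ratio of the other collagens was 0.035 with equal weights and -0.22 without cluster 5 and without both. Without cluster 5, 3 collagens passed 2-fold in fibroblasts, and without both, 2. In satellite glial cells Col1a1, Col1a2 and Col5a2 turned to -1.11, -0.27 and -0.30 under the stricter filter, -1.45, -0.19 and -0.34 with collagens in clustering and -1.92, -0.33 and -0.41 without the bone matrix cells, alone or with cluster 5. In fibroblasts Col11a1 turned to -0.33 without doublets, -0.37 without the bone matrix cell and -0.51 without both, Col6a2 to -0.045 without cluster 5 and -0.027 without both, and Col1a1 and Col1a2 to -0.063 and -0.055 without both. The changes without the bone matrix cells, cluster 5, both or the interferon-led cluster come from leaving out those cells, and elsewhere the cause was not tested. The cells with bone matrix UMIs changed class between alternatives. In the main run 1 was a fibroblast and 2 were satellite glial cells. Under the stricter filter and with collagens kept in clustering all 3 were fibroblasts, and without doublets all 3 were satellite glial cells. The part of these moves in the shifts was not tested. The basement membrane ratio in endothelial cells and the counts of genes highest in fibroblasts kept their direction, and stayed within 1 counting interval or 1.5 times the count, under every alternative run. No paired analysis was possible because each group holds 1 library. Counts below 50 UMIs limit the rare collagens.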

Other observations

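A cluster of 13 control and 18 CFA cells, led by Olig1, Vcan and Pdgfra, stayed unnamed and entered no comparison. It had 4 markers of non-myelinating Schwann cells detected, but its 10 leading genes held 1 marker of another class and 0 of that class. All collagens together were at 856.9 CPM (609.4 to 1171) and 655.3 CPM (463.7 to 899.4) in it. Col11a2 had 7 UMIs in the control and 15 UMIs in the CFA library, which is 153.8 CPM (61.84 to 316.9) and 258.7 CPM (144.8 to 426.6). Col9a3 had 11 and 4 UMIs, or 241.7 CPM (120.7 to 432.5) and 68.98 CPM (18.79 to 176.6).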
